A study of Mus musculus with 106 samples.

Results

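The livers of 3 female NZO/HlLtJ mice fed a high-fat diet were compared with those of 3 female NZO/HlLtJ mice fed chow, 6 of the study's 54 liver RNA libraries labelled female, beside 52 labelled male. NZO/HlLtJ is the inbred New Zealand Obese strain. The members were taken by their labels alone, as the libraries labelled NZO/HlLtJ f HFD and NZO/HlLtJ f CD. Fat, protein and carbohydrate supplied 6%, 20% and 74% of the energy of the chow (CD) and 60%, 20% and 20% of that of the high-fat diet (HFD). Feeding on the HFD began at 8 weeks of age, and all 6 mice were killed at 21 weeks, in the morning, with free access to food until then. The mice received no other treatment, and livers were perfused with saline before they were frozen. The question put to these libraries was which liver transcripts differ between the diets in this strain and sex. The 48 libraries of the other 8 strains labelled female served for comparison. One of them, labelled 129S1/SvImJ f CD 1, carries male levels of Y-linked genes and was kept under its label.

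The NZO strain becomes obese and insulin resistant on ordinary food, through variants at many loci, and is used as a model of obesity-linked diabetes. A liver supplied with dietary fat can oxidise it, store it in lipid droplets or send it out in lipoproteins. Oxidation genes are driven largely by the nuclear receptor PPARα, and fatty acid synthesis genes by SREBP-1c, the product of Srebf1, which insulin induces. NZO mice are also known for a poor response to leptin, the adipocyte hormone that reports fat stores.

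Counts assigned to genes came to 50907161 to 64081012 per NZO female library, inside the range of 35534924 to 73577221 over all libraries. At that depth 3 counts, taken here as the floor of detection, corresponded to 0.0491 to 0.0619 CPM (gene counts scaled to a common total). Levels below are CPM after scaling by library size with TMM factors. They are not divided by gene length and so compare libraries, not genes. Xist was at 263 to 389 CPM and the Y-linked Ddx3y at no more than 0.377 CPM in the 6 libraries, as their labelled sex requires. On log2 CPM, correlations between libraries were 0.9903 to 0.9914 within chow, 0.9937 to 0.9941 within HFD and 0.9856 to 0.9897 across diets. The first principal component of the 6 libraries carried 41.95% of their variance and set the diets apart, with chow 1 farthest out at -31.2 against -13.73 and -15.02 for the other chow libraries and 18.44 to 21.0 for the HFD libraries. The labels number the chow animals apart from the HFD animals and describe cohorts that entered at staggered times without tying a library to one, so that diet and cohort cannot be told apart. In whole liver, fewer cells of a type and less RNA per cell cannot be told apart either.

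Few transcripts differed between the diets by a margin that stood out from the spread seen across the study. In a single fit of all libraries, edgeR's quasi-likelihood test with Benjamini-Hochberg adjustment called 31 of 14330 genes at an adjusted p below 0.05 (0.216%), 22 higher on HFD (0.154%) and 9 lower (0.0628%). The median absolute log2 fold change over all genes was 0.144, below the 0.153 to 0.255 of the other 8 strains' females, a difference that was not tested. With the spread estimated from the 6 libraries alone, 776 of 14312 genes were called (5.42%), 449 higher (3.14%) and 327 lower (2.28%), and they included all 31. The common dispersion, the squared coefficient of variation between replicates, was 0.0105 in the 6 libraries and 0.0392 over the study, and the median absolute log2 fold change of the called genes was 0.551 and 1.64. The groups did not overlap in 2155 genes with higher HFD values (15.0% of 14330) and in 1852 with lower ones (12.9%). The call count depended on single libraries. It fell to 2 without chow 1 and 3 without HFD 1, lay between 7 and 13 without each of the others, and only Phlda3 passed in all 6 of these fits. Below, "rose" and "fell" name the fit they rest on, the study-wide fit or the 6-library fit. Of the members of the 30 gene lists described below, edgeR called Mogat1, Fabp4, Ces2a and Serpina1e alone in the study-wide fit.

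Phlda3 (ENSMUSG00000041801), at chr1:135766119-135769136 in the annotation (GRCm38), had the smallest adjusted p. It encodes a small protein with a pleckstrin homology domain that competes with AKT for membrane lipids and is a transcriptional target of p53. Its levels were 0.679, 0.958 and 0.929 CPM on chow and 5.41, 6.60 and 3.70 CPM on HFD, so that the lowest HFD library stood well above the highest chow library. The means were 0.855 ± 0.153 and 5.23 ± 1.46 CPM (SD, n = 3 each). Phlda3 rose by 2.61 ± 0.40 on the log2 scale (SE; edgeR adjusted p 0.000139), and its highest adjusted p without 1 library was 0.0209. Counts behind these levels ran from 36 to 48 per chow library and from 208 to 403 per HFD library.

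Further genes known as p53 targets or as products of DNA damage signalling were among the 22. Eda2r, a TNF receptor family member that binds ectodysplasin A2, was at 0.490, 0.459 and 0.598 CPM on chow and 2.48, 2.26 and 1.30 CPM on HFD. It rose by 1.96 ± 0.42 (log2, SE; edgeR adjusted p 0.0253). Ddias, named for its induction by DNA damage and its suppression of apoptosis, lay at 0.490, 0.539 and 0.722 CPM against 2.92, 1.96 and 1.40 CPM, a log2 rise of 1.84 ± 0.44 (edgeR adjusted p 0.0427). In both genes HFD 3 was the lowest HFD library and still lay above every chow library. Ccng1, which encodes cyclin G1, was at 29.3, 31.8 and 36.7 CPM on chow and 56.7, 55.3 and 48.3 CPM on HFD and rose by 0.71 ± 0.17 (edgeR adjusted p 0.0427). Cdkn1a, the cell cycle inhibitor p21 and a widely used p53 readout, overlapped between the diets, with 9.67, 21.9 and 18.6 CPM against 19.3, 19.5 and 15.1 CPM (log2 difference 0.10 ± 0.83).

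The promoters of Phlda3 and Ccng1 are shown because both genes rose in the study-wide fit and are known p53 targets. The sequences are from RefSeq (GRCm38.p6), the 250 bases before the annotated start, with a p53 response element half-site in capitals.
Phlda3, chr1:135765835-135766084, plus strand: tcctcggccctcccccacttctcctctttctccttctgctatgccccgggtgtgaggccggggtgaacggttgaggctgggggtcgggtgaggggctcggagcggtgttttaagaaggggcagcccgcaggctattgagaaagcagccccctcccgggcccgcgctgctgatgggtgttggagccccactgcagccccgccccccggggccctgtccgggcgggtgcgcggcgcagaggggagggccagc
Ccng1, chr11:40755287-40755536, minus strand: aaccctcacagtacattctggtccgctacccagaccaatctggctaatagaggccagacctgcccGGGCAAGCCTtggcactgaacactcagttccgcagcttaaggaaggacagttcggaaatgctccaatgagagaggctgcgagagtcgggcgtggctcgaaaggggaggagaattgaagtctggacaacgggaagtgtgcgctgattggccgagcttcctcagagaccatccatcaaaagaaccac
The half-site of 10 bases, searched on both strands and equal to its own reverse complement as a pattern, begins at base 66 of the Ccng1 stretch and does not occur in the Phlda3 stretch. RefSeq promoters of 300 bases, from 250 before to 50 after the start, were given for 19 of the 31 called genes, and Ccng1 was the 1 gene among them with a half-site. Over all 32851 promoters of that length 8.36% held one, so that 1 in 19 is near the background. A match is a run of letters, not a bound site.

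**Figure D1:**
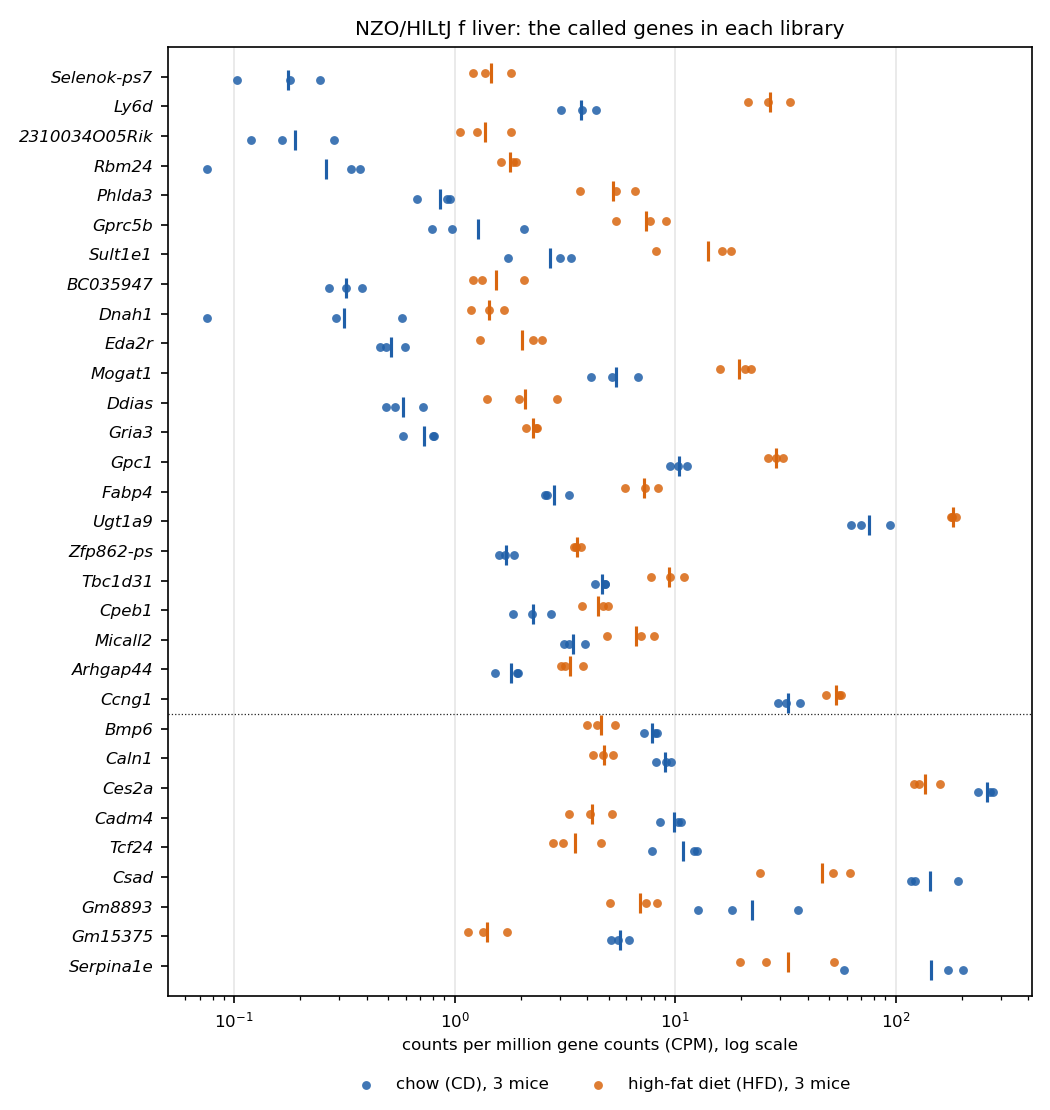
Level of each of the 31 called genes in each library, in CPM on a log axis; dots are single mice, vertical ticks are the means of 3 chow (blue) and 3 HFD (orange) libraries, and genes are ordered by log2 fold change. The diets do not overlap in any of the 31 genes, and the 22 above the dotted line are higher on HFD.

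Genes of fat storage and fatty acid transport among the 22 were Mogat1 and Fabp4. Mogat1 (ENSMUSG00000012187, chr1:78510991-78538173), a monoacylglycerol acyltransferase that makes diacylglycerol for triglyceride synthesis, was at 4.15, 6.82 and 5.18 CPM on chow and 20.7, 22.1 and 15.9 CPM on HFD. It rose by 1.86 ± 0.43 (log2, SE; edgeR adjusted p 0.0419), from 5.38 ± 1.35 to 19.5 ± 3.22 CPM (SD, n = 3 each). BC035947, which overlaps Mogat1 on the opposite strand, was also called, at 0.268 to 0.379 CPM against 1.21 to 2.06 CPM. Whether counting used the strand was not given in the sources used here, so reads of the pair cannot be told apart. Fabp4, the fatty acid binding protein of adipocytes and macrophages, was at 2.56, 2.63 and 3.30 CPM on chow and 7.34, 5.94 and 8.41 CPM on HFD, a rise of 1.35 ± 0.33 (edgeR adjusted p 0.0464). Of 9 adipocyte markers 4 were measured: Fabp4, Lipe, Car3 and Cfd. Of these 4, 3 had HFD values above every chow value, Fabp4, Cfd (log2 1.48) and Lipe (0.16), against 15.0% of all genes, and the list's median was 0.76. Cfd, the serum protease made by fat cells, was at no more than 0.344 CPM in any library. The summed level, nearly all of it Car3, was 1812 to 2137 CPM on chow and 1721 to 1924 CPM on HFD. The part of fat cells in the Fabp4 result was not tested.

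Sult1e1 and Ugt1a9 rose in the same fit. Sult1e1, the sulfotransferase that inactivates estrogens, was at 3.00, 1.76 and 3.36 CPM on chow and 16.3, 17.96 and 8.22 CPM on HFD, a log2 rise of 2.39 ± 0.53 (edgeR adjusted p 0.0282). HFD 3 was the lowest of the HFD libraries but above all chow libraries. Ugt1a9, a UDP-glucuronosyltransferase, rose from 62.7, 94.3 and 69.5 CPM to 187, 180 and 178 CPM (log2 1.27 ± 0.29, edgeR adjusted p 0.0379). It shares its annotated span with 8 other Ugt1a genes, so the assignment of its reads is uncertain. Gm15375, an unprocessed pseudogene, fell from 6.17, 5.15 and 5.49 CPM to 1.34, 1.15 and 1.72 CPM.

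Ly6d, a surface protein of the LY6 family held by a lipid anchor, was at 3.04, 3.77 and 4.37 CPM on chow and 26.4, 33.3 and 21.4 CPM on HFD. Its log2 rise was 2.86 ± 0.62 (edgeR adjusted p 0.0253). Gprc5b (ENSMUSG00000008734, chr7:118972047-118995211), an orphan class C receptor, was at 0.792, 2.06 and 0.970 CPM against 9.15, 7.68 and 5.42 CPM, a rise of 2.54 ± 0.43 (edgeR adjusted p 0.000743). Gpc1, the heparan sulfate proteoglycan glypican-1, moved with a narrow spread in both groups, from 9.45, 10.4 and 11.3 CPM to 26.4, 31.0 and 28.6 CPM. Rbm24, an RNA-binding protein of muscle, was at 0.0754 to 0.371 CPM on chow and 1.62 to 1.90 CPM on HFD, and the long non-coding RNA 2310034O05Rik at 0.120 to 0.283 CPM and 1.05 to 1.80 CPM. Dnah1, a dynein heavy chain of cilia and flagella, and the processed pseudogene Selenok-ps7 were on chow at 0.0754 to 0.579 and 0.103 to 0.245 CPM. The remaining rises in the study-wide fit were those of Gria3, an AMPA receptor subunit (log2 1.64), the pseudogene Zfp862-ps (1.06), Tbc1d31 (1.02), Cpeb1 (0.98), Micall2 (0.95) and Arhgap44 (0.89).

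Falls in the study-wide fit were fewer. Serpina1e, a member of the α1-antitrypsin cluster that is higher in male liver, was at 172, 58.6 and 203 CPM on chow and 19.7, 25.8 and 52.6 CPM on HFD, a log2 change of -2.15 ± 0.47 (edgeR adjusted p 0.0253). Chow 2 lay close to HFD 3. The unprocessed pseudogene Gm8893, which lies at chr12:103817856-103822243 near Serpina1e at chr12:103946931-103958975 and on the same strand, fell by 1.69 ± 0.31 on the log2 scale (edgeR adjusted p 0.00256). The members of this cluster are near-identical, so counts of single members are uncertain. Csad, which makes hypotaurine, the precursor of taurine, fell from 191, 118 and 122 CPM to 62.1, 24.3 and 52.2 CPM (log2 -1.64 ± 0.39, edgeR adjusted p 0.0462). Ces2a (ENSMUSG00000055730, chr8:104734003-104741634), a carboxylesterase of the endoplasmic reticulum, fell from 276, 267 and 237 CPM to 127, 159 and 121 CPM (log2 -0.94 ± 0.20, edgeR adjusted p 0.0153). Bmp6, the ligand that tells hepatocytes to make the iron hormone hepcidin, fell from 8.28, 8.14 and 7.24 CPM to 5.36, 3.995 and 4.45 CPM. Tcf24 (log2 -1.63), the adhesion molecule Cadm4 (-1.23) and the calcium-binding protein Caln1 (-0.92) completed the set.

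Genes of fatty acid oxidation and ketone body formation were lower on HFD in part. Of 47 measured, 14 fell and 0 rose in the 6-library fit, against 2.28% of all genes, and 31 had HFD values below every chow value, against 12.9%. In the study-wide fit edgeR and DESeq2 called 0 of them, and 8 were lower at an unadjusted p below 0.05 (3.04% of all genes). DESeq2 on the 6 libraries alone called 22 lower, against 4.17% of all genes. The list's median log2 fold change was -0.25, against 0.00549 over all genes, and 42 of 47 values were below 0. The summed level of the 47 was 33484 to 35628 CPM on chow and 25685 to 28481 CPM on HFD. The summed level of the 11 measured hepatocyte markers was also lower on HFD, at 137522 to 145845 CPM on chow and 104734 to 133756 CPM on HFD; 10 of 11 log2 values were below 0 and the median was -0.17, or -0.065 without chow 1 and -0.075 without HFD 1. The part of this in the oxidation result was not tested. Leaving out 1 library left 7 to 16 members lower, with 7 without HFD 2 or HFD 3 and 8 without chow 1.

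Several members with the smallest adjusted p are known PPARα targets. Acot1, a cytosolic acyl-CoA thioesterase, was at 243, 186 and 208 CPM on chow and 101, 95.1 and 77.6 CPM on HFD (log2 -1.22 ± 0.12 in the 6-library fit, edgeR adjusted p 0.000774). Cyp4a10, a fatty acid ω-hydroxylase, was at 4558, 3959 and 4347 CPM against 2372, 2194 and 1851 CPM (log2 -1.01 ± 0.11, edgeR adjusted p 0.00184). Its near copies in the Cyp4a family could share reads. Angptl4, a secreted inhibitor of lipoprotein lipase, was at 221, 246 and 264 CPM against 117, 119 and 128 CPM (log2 -1.01 ± 0.08, edgeR adjusted p 0.000568). Slc22a5, the carnitine importer, fell in the same fit from 71.7, 72.7 and 71.7 CPM to 50.6, 45.2 and 48.2 CPM. All 4 kept their call when any 1 library was left out. Fgf21, a hormone of the fasted liver, fell from 13.8, 9.42 and 10.7 CPM to 6.92, 3.80 and 2.97 CPM (log2 -1.31 ± 0.26, edgeR adjusted p 0.0234), and Pdk4, which turns off pyruvate dehydrogenase, was called at -1.35 although chow 2, at 14.9 CPM, lay below HFD 1, at 17.1 CPM. Cpt1a, the gate of mitochondrial fatty acid entry, overlapped between diets at 699.7 to 785 CPM on chow and 681 to 714 CPM on HFD. Cyp4a14, of the same family as Cyp4a10, also overlapped, at 1598 to 2277 CPM on chow and 1107 to 1701 CPM on HFD. It was not called in either fit (log2 -0.57, edgeR adjusted p 0.0857 in the 6-library fit). The mitochondrial enzymes Acadm, Acadl, Hadha and Hadhb had HFD values below every chow value, at log2 differences of -0.18, -0.10, -0.29 and -0.31, and were not called in either fit.

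Fatty acid synthesis genes were higher in part. Of 27 measured, 7 rose and 0 fell in the 6-library fit, against 3.14% and 2.28% of all genes, 15 had HFD values above every chow value, against 15.0% of all genes, and 1, Agpat2, had values below (12.9%). The median was 0.22, with 19 values above 0 and 8 below. In the study-wide fit edgeR and DESeq2 called 0, with 4 higher at an unadjusted p below 0.05 (3.96% of all genes). Leaving out 1 library left 4 to 6 members higher in the 6-library fit. Thrsp, the lipogenic regulator Spot 14, was at 39.2, 68.0 and 69.7 CPM on chow and 162, 170.4 and 169 CPM on HFD (log2 1.501 ± 0.18 in the 6-library fit, edgeR adjusted p 0.00231). Srebf1 was at 211, 216 and 255 CPM against 415, 407 and 319 CPM (log2 0.74 ± 0.11, edgeR adjusted p 0.00638). The groups lay well apart in both, with chow 1 the lowest library for Thrsp. Fasn, the fatty acid synthase, rose in the same fit from 185, 147 and 199.6 CPM to 323, 247 and 228 CPM. The Fasn call passed in 1 of the 6 such fits without 1 library (edgeR adjusted p up to 0.103). Elovl6, which elongates the product of Fasn, rose in the 6-library fit from 36.1, 37.0 and 35.99 CPM to 71.9, 47.2 and 57.6 CPM, and Pnpla3, a lipase that Srebf1 induces, by 1.30 from 0.547, 0.459 and 0.598 CPM. Scd1, the stearoyl-CoA desaturase, was at 5989, 7573 and 3476 CPM on chow and 8263, 7574 and 9755 CPM on HFD and was not called, with chow 2 and HFD 2 almost level. Acly, which supplies cytosolic acetyl-CoA, overlapped (log2 difference 0.10).

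**Figure D2:**
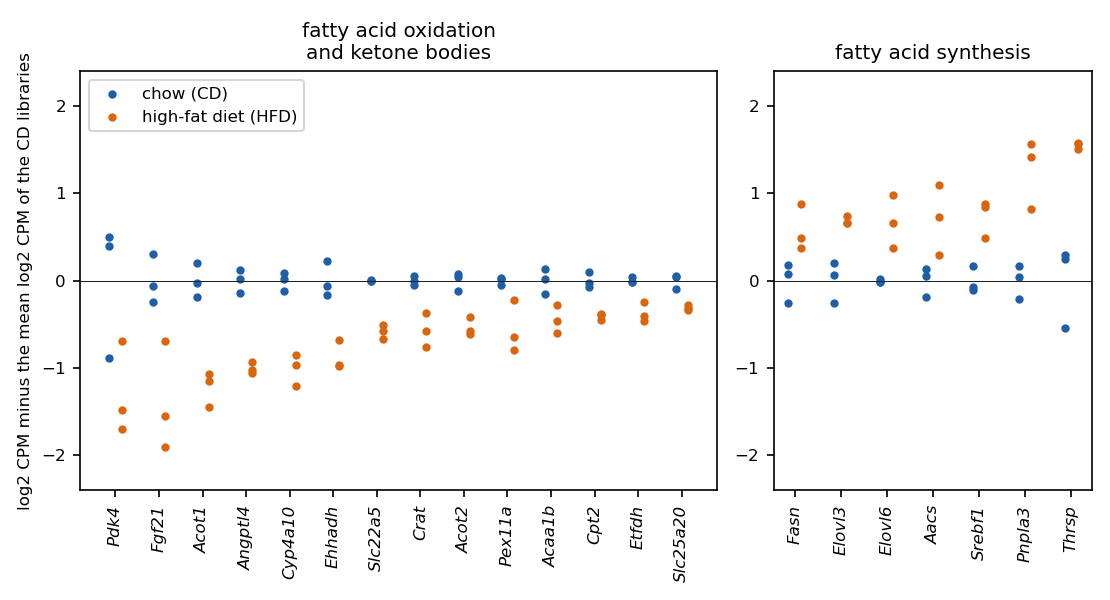
Log2 CPM of single mice minus the mean log2 CPM of the 3 chow libraries, for the 14 oxidation and 7 synthesis genes called in the 6-library fit. HFD libraries (orange) lie below chow libraries (blue) in all oxidation genes but Pdk4, where 1 chow library reaches into the HFD range, and above them in the synthesis genes.

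Lipid droplet genes split. Of 29 measured, 4 rose and 5 fell in the 6-library fit, against 3.14% and 2.28% of all genes, with Mogat1 and Fabp4 the pair also called in the study-wide fit. Whichever NZO library was left out, the study-wide fit no longer called any member. In the 6-library fit leaving out 1 library left 3 to 5 rises and 2 to 4 falls, the 2 without HFD 2 or HFD 3. Fabp2, a fatty acid binding protein, was at 79.6 to 101 CPM on chow and 137 to 163 CPM on HFD, and Plin3, a droplet coat protein, rose by 0.43 in the 6-library fit. Plin5, the coat protein of droplets in contact with mitochondria, fell from 85.4, 90.3 and 79.7 CPM to 49.4, 52.7 and 47.3 CPM (log2 -0.78 ± 0.07, edgeR adjusted p 0.000774 in the 6-library fit). G0s2, an inhibitor of the lipase ATGL, fell by 1.20 in that fit. Plin2, the main droplet coat of hepatocytes, was at 836, 828 and 818 CPM on chow and 724, 684 and 617 CPM on HFD (log2 -0.29 ± 0.37, edgeR adjusted p 0.936; 0.0577 in the 6-library fit). Droplet fusion genes often tied to fatty liver gave no call: Cidec was at 3.47 to 4.37 CPM against 3.97 to 5.25 CPM, and Cidea at no more than 0.0655 CPM. The fatty acid transporter Cd36 and the nuclear receptor Pparg overlapped, at log2 differences of -0.01 and 0.31.

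Of 25 cholesterol genes 3 rose in the 6-library fit, Dhcr7, Mvk and Fdps, against 3.14% of all genes, and DESeq2 on the 6 libraries called 7 higher, against 4.76%. Of the 25, 9 had HFD values above every chow value (15.0% of all genes) and 0 below (12.9%), 21 log2 values were above 0, and the median was 0.24, or 0.10 without chow 2. Without HFD 3 none of the 3 was called. Sqle, the squalene epoxidase, overlapped between diets (log2 difference 0.21). Cyp7a1, the rate-limiting enzyme of bile acid synthesis, was at 35.7, 83.2 and 53.6 CPM on chow and 186, 91.5 and 169 CPM on HFD, a wide spread with chow 2 and HFD 2 close (log2 1.37 ± 0.30 in the 6-library fit, edgeR adjusted p 0.0316). Its SE in the study-wide fit was 0.95, and the adjusted p there 0.846. Slc51b, the basolateral bile acid exporter, rose in the 6-library fit by 1.53, from 0.259 to 0.495 CPM to 0.747 to 1.39 CPM, and Cyp8b1 overlapped. Of 27 bile acid genes 3 rose and 0 fell in that fit, against 3.14% and 2.28% of all genes. Without chow 1 none of the 3 was called, and without chow 2 another 3 genes fell.

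Glucose genes gave 1 rise and 3 falls among 31 in the 6-library fit, against 3.14% and 2.28% of all genes. The rise was lost whichever library was left out, and no fall was called without HFD 1 or HFD 2. Igfbp1, an insulin-repressed secreted binding protein, was at 94.4, 38.1 and 104 CPM on chow and 22.1, 21.8 and 35.1 CPM on HFD (log2 -1.58 ± 0.32, edgeR adjusted p 0.0231). Chow 2 came near HFD 3. The gluconeogenic Pck1 and G6pc had HFD values below every chow value, 3381 to 3741 against 1673 to 3065 CPM and 319 to 504 against 189 to 291 CPM, and were not called in either fit (edgeR adjusted p 0.0822 and 0.0571 in the 6-library fit). Of 25 lipoprotein genes 2 rose and 2 fell, against the same shares. Apoa4 rose from 247, 139 and 245 CPM to 340.4, 402 and 432 CPM and Lpl by 0.50, and Apoa5 and Mttp, the triglyceride transfer protein, fell (log2 -0.36 and -0.39), all in the 6-library fit. No rise among them was called without HFD 2 or without HFD 3, and no fall without chow 1, HFD 1 or HFD 3.

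Drug-metabolising genes were lower in part. Of 56 measured, 11 fell and 1 rose in the 6-library fit, against 2.28% and 3.14% of all genes. HFD values were below every chow value in 17 and above in 4, against 12.9% and 15.0%, and the median was -0.05. Falls among them numbered 7 to 11 when 1 library was left out, with 7 without HFD 2. Cyp26a1, which clears retinoic acid, was at 6.30, 6.19 and 4.58 CPM on chow and 1.34, 1.96 and 0.978 CPM on HFD (log2 -1.99 ± 0.23, edgeR adjusted p 0.00209). Cyp2b10, the classic target of the receptor CAR, fell by 1.36 ± 0.17 (log2) from 6.45, 8.68 and 6.13 CPM to 2.43, 3.26 and 2.61 CPM (edgeR adjusted p 0.00276). Cyp1a2 was at 394 to 451 CPM against 216 to 287 CPM. The 1 rise was that of Cyp2b13, a female-specific enzyme, from 313, 366 and 401 CPM to 583, 644 and 634 CPM. The Cyp2 enzymes belong to gene families with close copies, so their single values are uncertain.

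Sex-biased liver genes changed in both directions. Of 26 female-biased genes 3 rose and 5 fell in the 6-library fit, and of 24 male-biased genes 4 and 4, against 3.14% and 2.28% of all genes. Without HFD 3 the female-biased falls numbered 3, and the male-biased falls were 0 without chow 1, HFD 1 or HFD 2. With all 6 libraries the male-biased falls were those of Cyp4a12b, Serpina1e, Egfr and Mup3 (log2 -4.25, -2.15, -0.63 and -0.54). Over the 24 male-biased genes the median was -0.24, with 8 values above 0 and 16 below. HFD values were above every chow value in 5 of them and below in 8, against 15.0% and 12.9% of all genes. Cux2, a female-specific repressor, rose from 27.5, 20.1 and 25.2 CPM to 42.7, 51.5 and 45.8 CPM (log2 0.94 ± 0.11, edgeR adjusted p 0.00257), and the female-biased Sult2a1 fell from 507, 507 and 474 CPM to 279, 312 and 256 CPM. Cyp2u1, male-biased, rose by 1.48 ± 0.10 from 10.6, 10.6 and 12.2 CPM to 34.4, 31.3 and 27.3 CPM (edgeR adjusted p 0.000188). The study-wide fit called Serpina1e lower and no other gene of either list, with edgeR adjusted p 0.829 for Cux2 and 0.329 for Cyp2u1.

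Clock genes changed in both directions. Of 27 measured, 4 rose and 5 fell in the 6-library fit, against 3.14% and 2.28% of all genes. Dbp, an output factor of the clock, was at 15.3, 31.5 and 42.8 CPM on chow and 77.2, 81.7 and 91.4 CPM on HFD (log2 1.48 ± 0.27, edgeR adjusted p 0.0157). Per3 rose from 14.2, 22.1 and 19.5 CPM to 37.2, 32.2 and 40.5 CPM and Per2 by 0.70, and Wee1 rose by 0.61. Arntl, the positive arm of the clock, fell from 20.6, 15.6 and 12.6 CPM to 10.4, 9.07 and 7.49 CPM (log2 -0.86 ± 0.17, edgeR adjusted p 0.0228), as did Nfil3, which opposes Dbp (log2 -0.55). Chow 1 had the lowest Dbp, Per3 and Per2 and the highest Arntl and Nfil3 of the 6 libraries. Without it 3 genes rose and 2 fell, without HFD 3 1 rose and 0 fell. In the study-wide fit 0 of the 27 were called, with an SE of 0.99 for Dbp (edgeR adjusted p 0.844). The hour of killing of each mouse was not given in the sources used here beyond a shared morning window, and its part in the result was not tested.

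**Figure D3:**
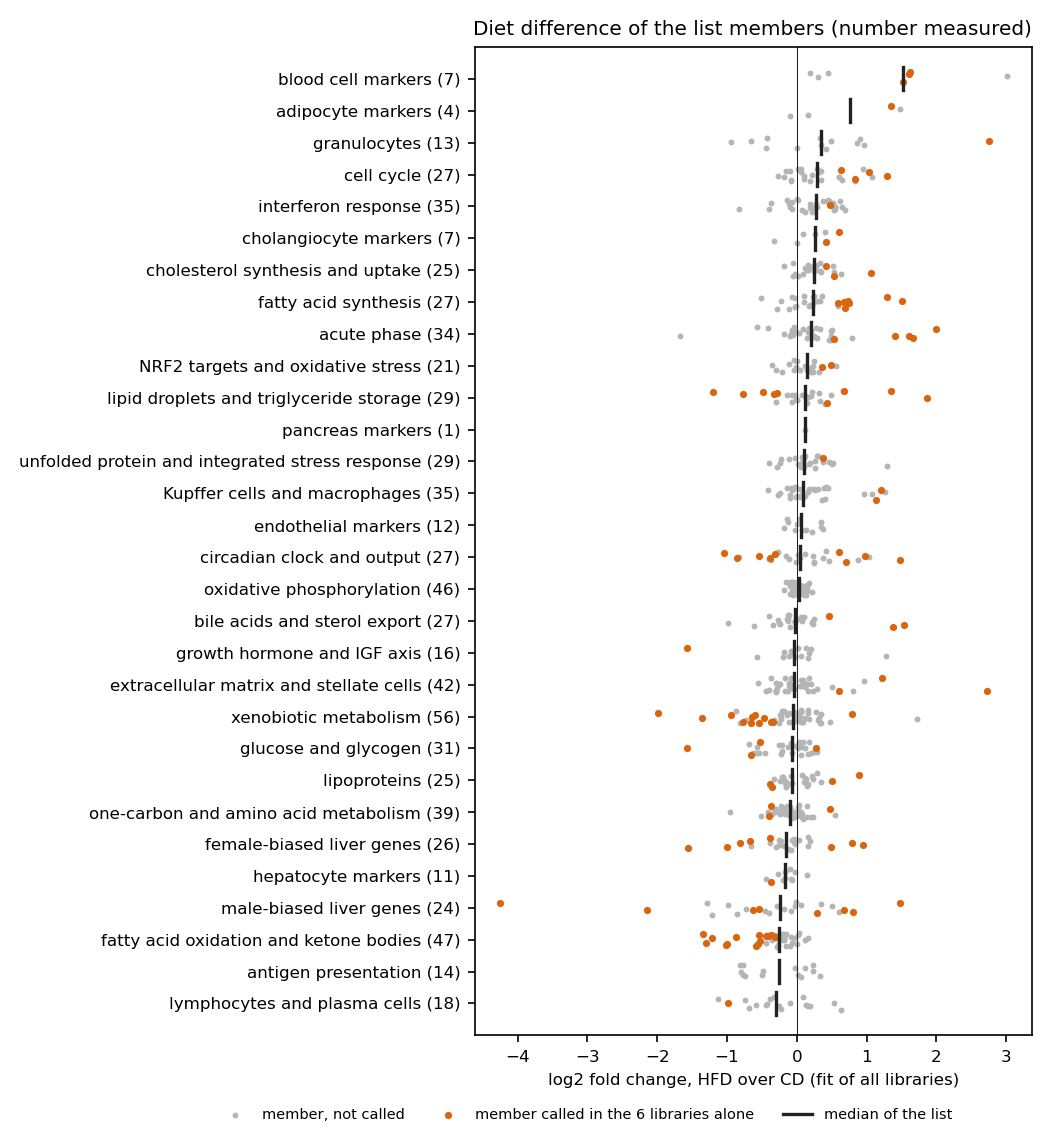
Log2 fold change (HFD over CD, fit of all libraries) of every measured member of the 30 gene lists, with the number measured in brackets; orange dots were called in the 6-library fit and bars mark list medians. The oxidation list lies mostly to the left of 0 and the oxidative phosphorylation list in a narrow band at 0.

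Of 34 acute phase genes 5 rose and 0 fell in the 6-library fit, against 3.14% and 2.28% of all genes. Lcn2, a neutrophil and hepatocyte siderophore binder, was at 1.49, 1.48 and 1.77 CPM on chow and 3.15, 7.88 and 7.86 CPM on HFD (log2 1.99 ± 0.31, edgeR adjusted p 0.00772). Orm3 was at 6.90 to 10.1 CPM against 20.9 to 37.1 CPM, Saa1 at 16.6 to 38.7 CPM against 39.7 to 103 CPM, Saa2 at 8.60 to 21.0 CPM against 24.4 to 64.4 CPM, and Serpina3n rose by 0.53. HFD 2 and HFD 3 were the high libraries for Lcn2, Saa1 and Saa2, and HFD 1 was the one closest to the chow range. Saa1 and Saa2 are close copies, as are Orm genes. The count was 2 without HFD 2, without HFD 3 or without chow 1, 8 without HFD 1 and 7 without chow 2, where another 2 genes fell. In the study-wide fit 0 of the 34 were called, with an SE of 1.09 for Lcn2 (edgeR adjusted p 0.75).

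The same pair of libraries was high in haemoglobin. Hba-a1 was at 23.8, 23.5 and 16.3 CPM on chow and 32.8, 82.0 and 80.5 CPM on HFD, Hbb-bs at 14.7, 13.5 and 10.5 CPM and 20.9, 48.0 and 48.8 CPM, and Hbb-bt followed them. All 3 rose in the 6-library fit, against 3.14% of all genes, the whole list of 7 measured blood markers summed to 41.7 to 54.5 CPM on chow and 69.3 to 154 CPM on HFD, and of the 3 none was called without HFD 2 and 1 without HFD 3. The erythroid enzyme Alas2 and band 3, Slc4a1, overlapped between diets. The part of blood left in the tissue in the acute phase result was not tested. Granulocyte genes were low, at summed levels of 5.22 to 7.76 CPM and 8.66 to 8.93 CPM over 13 genes, of which Prtn3 rose in the 6-library fit. The Prtn3 call was lost without HFD 2.

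Matrix, macrophage and proliferation genes gave a few calls each, all of them rises in the 6-library fit, where 3.14% of all genes rose. Of 42 matrix genes 3 rose: Mmp12, a macrophage elastase, from 0.226, 0.339 and 0.268 CPM to 2.43, 1.34 and 1.74 CPM (log2 2.72 ± 0.30, edgeR adjusted p 0.00186 in the 6-library fit), Col1a1 from 3.30, 2.27 and 2.27 CPM to 3.96, 5.37 and 9.02 CPM, and Spp1, osteopontin, by 0.60. The Col1a1 call passed in 2 of the 6 fits without 1 library (edgeR adjusted p up to 0.0903). Over the 42, HFD values were above every chow value in 5 and below in 4, among them Lrat (log2 -0.56) and Des (-0.27) of stellate cells, against 15.0% and 12.9% of all genes. The median was -0.05, with 20 values above 0 and 22 below, and without HFD 3 another 6 matrix genes fell. Of 35 Kupffer cell and macrophage genes 2 rose, both of them marks of recruited monocytes: Ccr2 from 0.886, 0.938 and 1.07 CPM to 2.65, 2.03 and 1.99 CPM, and Ly6c2 by 1.13. The summed level of the 35 was 1227 to 1355 CPM on chow and 1219 to 1337 CPM on HFD, and Adgre1, which encodes F4/80, overlapped. Trem2, Gpnmb and Itgax, marks of lipid-laden macrophages, had HFD values above every chow value at log2 differences of 1.26, 0.96 and 1.08 without a call. Over the 35, HFD values were above every chow value in 8 and below in 1, against 15.0% and 12.9% of all genes, and 22 values were above 0 and 13 below. Of 27 cell cycle genes Ccnd1, Ube2c, Mki67 and Cdc20 rose and 11 had HFD values above every chow value, against 15.0% of all genes, with a summed level of 92.1 to 101 CPM on chow and 107 to 111 CPM on HFD. No rise was called without HFD 2 or without HFD 3.

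Other lists gave few calls or none. None of 46 oxidative phosphorylation genes, 12 endothelial markers or 14 antigen presentation genes was called by edgeR in the 6-library fit, with 3, 3 and 7 at an unadjusted p below 0.05, against 22.7% of all genes. DESeq2 called 0, 1 and 1, against 8.93%. Of 35 interferon-responsive genes 1 rose, Ifi27, but 16 rose without chow 3, which was the highest chow library in the list sum of 1021 to 1687 CPM. Of the antigen presentation genes 6 fell without chow 1, and 2 rose without chow 3. In the lists of NRF2 targets, the unfolded protein response and one-carbon and amino acid metabolism 2, 1 and 1 rose and 0, 0 and 2 fell, among 21, 29 and 39 measured, against 3.14% and 2.28% of all genes. Without chow 1 or any 1 HFD library no NRF2 target was called, and without chow 3 the unfolded protein response genes gave 4 rises. No one-carbon or amino acid gene fell without chow 1, HFD 1 or HFD 2. Of 16 growth hormone and IGF genes Igfbp1 fell alone, with no fall without chow 1, HFD 1 or HFD 2 and 2 falls without chow 2. Among hepatocyte markers Hnf4a fell by 0.37 in the 6-library fit, a call lost whichever library was left out (edgeR adjusted p up to 0.108). Of 7 cholangiocyte markers 2 rose, Krt8 and Spp1, against 3.14% of all genes, with 1 called without chow 1, chow 2, HFD 2 or HFD 3, and the defining duct keratin Krt19 stayed at 0.227 to 1.32 CPM with overlap. The 1 pancreas marker measured was at 4.81 to 8.52 CPM, overlapping between diets. Igkc, the κ light chain of plasma cells, fell by 0.995 in the 6-library fit among 18 lymphocyte genes, and of the fits without 1 library it passed in the 1 without chow 3.

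The HFD effect in NZO females was then set against the mean effect in females of the other 8 strains, as an interaction contrast in the study-wide fit. Of 14330 genes 15 differed (0.105%), the NZO effect being higher in 8 and lower in 7, and 8 of the 15 were also called for the diet effect itself. Phlda3 and Gprc5b stood out in NZO. The log2 effect of Phlda3 was between -0.72 and 0.66 in the other 8 strains, and the difference was 2.49 ± 0.42 (edgeR adjusted p 0.000812). For Gprc5b the other strains ranged from -1.34 to 0.45, and the difference was 2.79 ± 0.46 (edgeR adjusted p 0.000756). The pair passed in all 6 fits that left out an NZO library, and no other gene passed as higher in these fits except in the one without HFD 3. Sult1e1 differed by 2.76 from a range of -1.47 to 2.10, whose upper end, in 129S1/SvImJ, was close to the 2.39 of NZO. Gria3 differed by 1.68, 2310034O05Rik by 3.39 and the pseudogene Zfp862-ps by 1.05. Scn4b, a sodium channel β subunit, was at 1.68, 1.86 and 1.86 CPM on chow and 5.22, 4.34 and 4.997 CPM on HFD, and Tnfrsf23, a decoy receptor for TRAIL, at 0.681 to 0.898 CPM and 1.56 to 2.26 CPM. Both differed from the other strains, by 1.82 and 1.69, without a call for the NZO effect itself in the study-wide fit.

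Gbp8, Hk3, Igkc, Jchain, A2m, Serpina1e and Gm8893 had a lower effect in NZO. Without HFD 1 none of these genes passed, and A2m passed in 1 of the 6 fits without an NZO library. Gbp8, an interferon-inducible GTPase, was at 2.02, 4.37 and 6.48 CPM on chow and 1.75, 2.28 and 2.35 CPM on HFD, while its effect was above 0 in all other 8 strains (difference -1.84 ± 0.35, edgeR adjusted p 0.00449). The diets overlapped for Gbp8 in NZO, without a call for the NZO effect in either fit. Its difference passed in 4 of the 6 fits that left out an NZO library. Hk3, a hexokinase of myeloid cells, was also above 0 in the other 8 strains (0.07 to 1.97) and at -0.62 in NZO. Igkc and Jchain, both of plasma cells, were at -0.99 and -1.13 in NZO and at means of 1.10 and 1.03 in the others. A2m, a protease inhibitor, overlapped in NZO, with 1.72, 0.259 and 3.01 CPM against 0.119, 0.311 and 0.178 CPM, and differed by -3.82 ± 0.89 (edgeR adjusted p 0.0495). Serpina1e and Gm8893 differed by -2.41 and -1.82. Of the 15 genes, 5 passed when the CAST/EiJ, PWK/PhJ and WSB/EiJ strains were left out of the mean and 8 when C57BL/6J was. Without the library labelled 129S1/SvImJ f CD 1, 20 genes differed, all 15 among them.

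**Figure D4:**
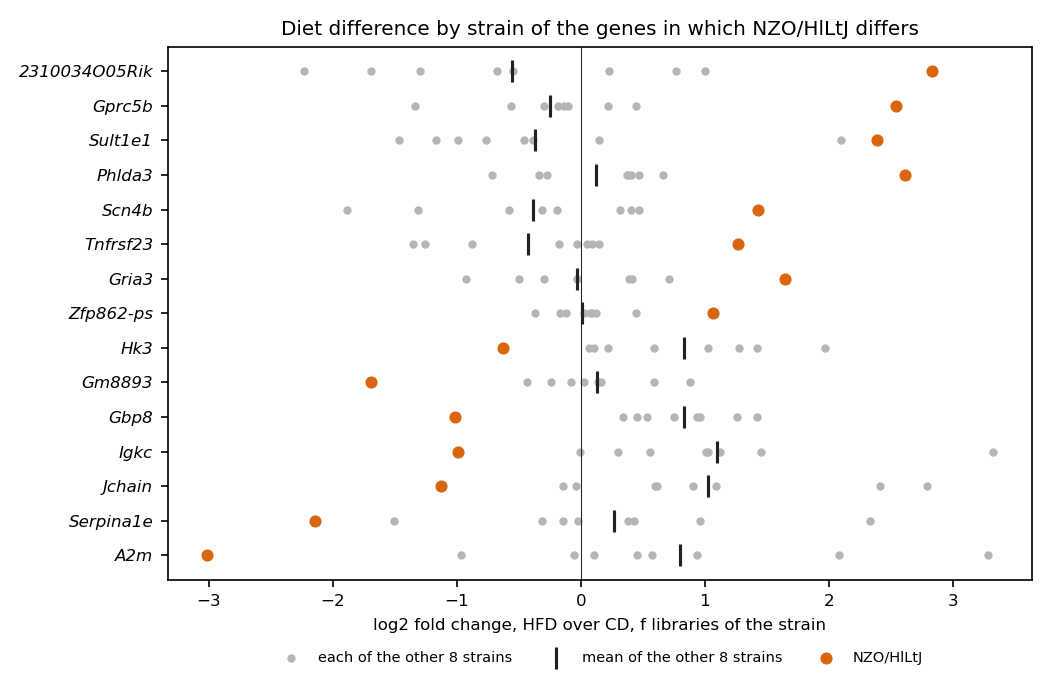
Log2 fold change (HFD over CD) in females of each strain for the 15 genes in which the NZO/HlLtJ effect (orange) differed from the mean of the other 8 strains (black tick); grey dots are single strains with 3 libraries a diet. NZO/HlLtJ lies outside the range of the other strains in all 15 genes.

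The oxidation list's median of -0.25 lay within the -0.40 to 0.11 of the other strains' females, and the synthesis median of 0.22 within -0.41 to 0.34. Of the 30 lists, 4 had an NZO median below those of all 8 other strains and 3 a median above. The antigen presentation and lymphocyte medians were -0.26 and -0.30, against -0.09 to 1.16 and -0.04 to 1.29 in the others, and the bile acid median was -0.03 against 0.05 to 0.34. Antigen presentation genes split in NZO, with 6 values above 0 and 8 below. Their summed level was not lower, at 2968 to 3877 CPM on chow and 3475 to 4105 CPM on HFD. The lymphocyte list had 6 values above 0 and 12 below, and summed to 44.8 to 52.2 CPM on chow and 36.5 to 41.7 CPM on HFD. The antigen presentation median was -0.38 to -0.10 and the lymphocyte median -0.38 to -0.11 when 1 NZO library was left out, and all 3 lists then remained below the others. The Kupffer cell median, 0.08 against 0.09 to 0.88, was no longer below all 8 without chow 2, chow 3 or HFD 1. The cholangiocyte median was 0.26 against -0.20 to 0.18 and stayed above in all 6 such fits. The blood median of 1.52, against -1.70 to 1.16, was 0.23 without HFD 3, and the lipid droplet median of 0.12, against -0.22 to 0.08, was within the others' range without chow 2, HFD 1 or HFD 2. These list differences were not tested.

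Levels on chow were also set against those of the other strains. Of 26 panel genes of liver metabolism, inflammation and matrix 5 had their highest female chow mean in NZO and 6 their lowest, against 13.5% and 14.5% of all genes. Srebf1 averaged 227 CPM in NZO and 38.0 to 84.3 CPM in the other strains, and Scd1 5679 CPM against 92.8 to 2414 CPM, and for both every NZO chow library was above all 24 chow libraries of the other strains labelled female, the 1 with male levels of Y-linked genes included. Acly, Fasn and Cd36 were highest by mean, with libraries that overlapped. Lepr, the leptin receptor, averaged 6.68 CPM against 34.8 to 294 CPM, Igfbp2, an insulin-like growth factor binding protein that leptin raises, 209 CPM against 772 to 2270 CPM, and Cyp8b1, the sterol 12α-hydroxylase, 275 CPM against 742 to 1692 CPM. For these 3 genes every NZO library was below all others. Over all 14330 genes, 621 had every NZO chow library above the 24 others and 314 below. Cidec, Cyp4a14 and G6pc had their lowest mean in NZO with overlap. Outside the panel, Mogat1 was highest in NZO on chow, at 5.38 CPM against 0.640 to 2.09 CPM, with no overlap, and Igfbp1 was lowest. These levels are described and were not tested, and none of Scd1, Lepr, Igfbp2 and Cyp8b1 was called for the diet effect in either fit.

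**Figure D5:**
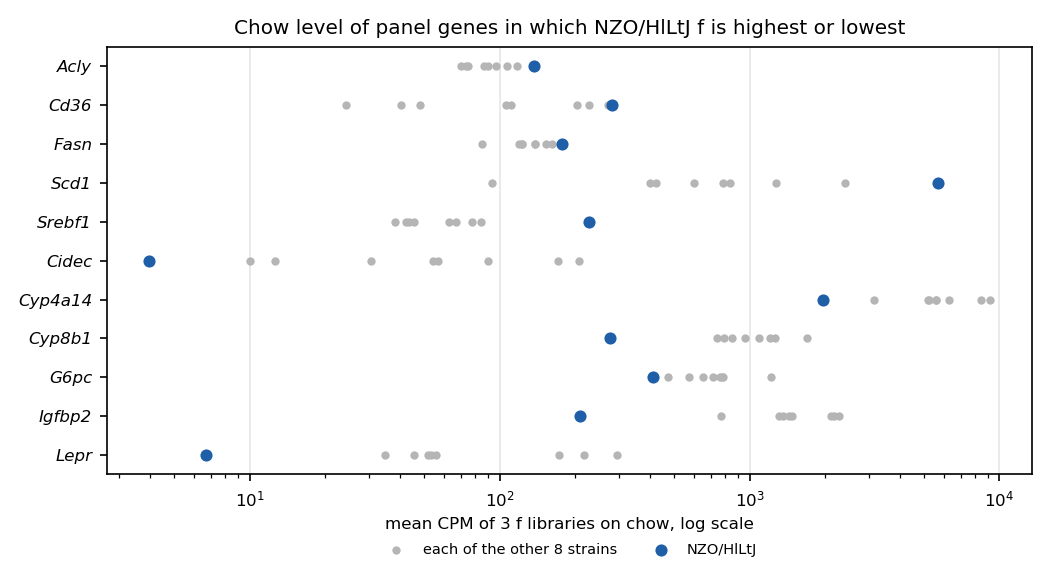
Mean level in CPM (log axis) of 3 female chow libraries per strain for the 11 panel genes in which NZO/HlLtJ (blue) is highest or lowest of 9 strains; grey dots are the other 8 strains. Scd1 and Srebf1 lie to the right and Lepr, Igfbp2 and Cyp8b1 to the left of every other strain.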

How the data were processed

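Liver mRNA was sequenced with a SMARTER library kit, per the labels' protocols, with 1 library per mouse. The authors deposited raw counts per Ensembl gene. FastQC, STAR 2.73a and edgeR 3.24.3 are named in the submitters' processing notes. The counting tool, strand setting and genome build were not given in the sources used here. The 3 special lines that name no gene were left out: reads not uniquely aligned were 15.8% to 17.0%, ambiguous ones 6.03% to 6.36% and those outside genes 4.06% to 6.03% of the NZO female totals. Symbols and positions came from GENCODE M21 (GRCm38).

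The 36 groups of strain, sex and diet were fitted as means in edgeR 4.0.16 (R 4.3.3) with TMM factors and the quasi-likelihood test, with Benjamini-Hochberg adjustment over 14330 genes and a threshold of 0.05. The 6 libraries were also fitted alone. The SE given with an edgeR log2 fold change is its absolute value divided by the square root of the F statistic. The script was tested on simulated data. Alternatives were other size factors, a filter at 1 CPM, DESeq2 1.42.0, limma 3.58.1 with trend and a prior count of 1, females only, and fits without single libraries or strains. Each library is labelled as a separate mouse. Genes were named as 26 panel genes (other members of the panel are not reported here), the 12 largest rises and falls called without overlap at 1 CPM or more, the 5 highest and lowest differences from other strains, and up to 4 called members per list. For the 6-library fit, list members and further called genes were named after values were seen, as were the 2 promoters. Members and lists were chosen with earlier results of these data known.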

Additional observations from a re-analysis of the deposited data

Results flagged for a closer look

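The genes below are listed because their diet effect in NZO/HlLtJ females differed from the mean of the other 8 strains' females in the interaction contrast of edgeR's quasi-likelihood test. The log2 difference was 3.39 for 2310034O05Rik, 2.79 for Gprc5b, 2.76 for Sult1e1, 2.49 for Phlda3, 1.82 for Scn4b, 1.69 for Tnfrsf23, 1.68 for Gria3 and 1.05 for Zfp862-ps. It was -1.46 for Hk3, -1.82 for Gm8893, -1.84 for Gbp8, -2.09 for Igkc, -2.16 for Jchain, -2.41 for Serpina1e and -3.82 for A2m. For A2m, Hk3, Tnfrsf23 and 2310034O05Rik the adjusted p was 0.0495, close to the threshold. Groups of 3 libraries were not screened for single outlying samples.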

How the results depend on the processing

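No paired analysis was possible because the labels number each animal singly, with no number shared between the diets, which were fed to different animals. Against the 31 calls for the diet effect, the total was 31 with RLE size factors (31 shared with the fit of all libraries), 33 with a mean of at least 1 CPM (27 shared), 39 with DESeq2 (28 shared), 22 in female libraries only (18 shared), 12 with limma (12 shared), 31 without the library labelled 129S1/SvImJ f CD 1 (30 shared) and 776 in the 6 libraries alone (31 shared). Leaving out 1 NZO library gave 2 to 13. The 776 became 794 with RLE size factors and 1253 with DESeq2, and 220.0 to 868 without 1 library. The 15 differences from other strains became 27 with DESeq2, 9 with limma, 9 in female libraries only, 8 without C57BL/6J and 8 without the 3 strains CAST/EiJ, PWK/PhJ and WSB/EiJ in the mean, and 2 to 8 without 1 NZO library; the cause was not tested. Signs turned in 3 panel genes when 1 NZO library was left out, with log2 fold changes from -0.0577 to 0.913 for Cidea (0.495 with all libraries, negative without chow 2, the library with no Cidea count), -0.0465 to 0.188 for Cyp8b1 and -0.0602 to 0.0418 for Cd36, which was at 0.000528 with the 1 CPM filter. With 3 mice a group, the number of mice limits the precision. The p-values of the 6-library fit measure the spread between these mice. Those of the study-wide fit measure the spread within the groups of the whole study.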

Other observations

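A list of 38 genes known as p53 targets was written after the values of Phlda3, Eda2r and Ccng1 had been seen, so that its counts are a description and no support. Of 35 measured, 4 rose and 0 fell in the study-wide fit (0.154% of all genes rose), 9 rose and 0 fell in the 6-library fit (3.14% rose), and 30 had log2 fold changes above 0. The median was 0.26, against -0.16 to 0.14 in females of the other 8 strains. Of the 35, Phlda3 alone was called for a difference from the other strains (0.105% of all genes were). The effect of Eda2r was above 0 in all 8 of those strains (0.07 to 1.25) and that of Ccng1 in 7, and Ddias reached 1.02 in DBA/2J. Besides the 4 genes of the report, Ckap2, Tnfrsf10b, Gtse1, Bax and Rps27l rose in the 6-library fit. Tnfrsf10b, a death receptor for TRAIL, was at 0.490, 0.718 and 0.660 CPM on chow and 1.29, 1.52 and 1.14 CPM on HFD. Bax, the pore-forming apoptosis protein, was at 11.4, 11.4 and 13.6 CPM against 17.2, 17.4 and 15.5 CPM. Mdm2, the ligase that degrades p53, was at 22.8 to 26.1 CPM against 27.9 to 36.1 CPM without a call, and Trp53inp1, Sesn2 and Gdf15 overlapped between diets. In the study-wide fit 3 members rose without HFD 3 and 1 without each of the other NZO libraries. In the 6-library fit 4 members rose without chow 1, HFD 1, HFD 2 or HFD 3, 6 without chow 2 and 9 without chow 3.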
